A study of Mus musculus with 11 samples.

Results

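The 6 mouse tumors that grew from oviduct-TBP clones were compared by their cluster, 2 tumors of cluster I (Tumor1 and Tumor3) against 4 tumors of cluster II (Tumor2, Tumor4, Tumor5 and Tumor6), out of the 27 libraries of the series. Cluster membership was chosen by a hierarchical clustering of the expression values of these same libraries, so every difference between the clusters is given as a description by tumor, with no test. Of the 18305 genes in the count table, the 10507 genes with a mean of at least 5 CPM (read counts per 1000000 reads of the scaled library) over the 6 tumors are described. Tests are given only for libraries other than the tumors, which are 4 tumor-derived organoid lines, 3 oviduct tissue samples and 3 wild-type oviductal organoid lines.

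TBP clones are oviductal organoids from mice that carry a Cas9-P2A-EGFP cassette in the ROSA26 locus and so express Cas9 in all cells. They were mutated with sgRNAs against *Trp53*, *Brca1* and 1 further tumor suppressor and were selected in Nutlin-3a, which spares cells without working p53. The tumors grew from such clones after transplantation into young adult female NSG mice, an immunodeficient strain that lacks T, B and NK cells but keeps myeloid cells, vessels, muscle and skin. RNA came from whole tumor tissue, so reads of the host are included. Per the study's methods the sequenced tumors were independent and had been grown under the skin. The parent clone and histology of each sequenced tumor are not given in the sources used here. The 6 tumors were deposited as 3 samples that held Tumor1 with Tumor2, Tumor3 with Tumor4, and Tumor5 with Tumor6. T1-mes and T3-mes are cultures from mesenchymal-mixed TBP tumors and T2-epi and T4-epi cultures from epithelial TBP tumors, all kept in Nutlin-3a. Per the study's methods the tumors behind T1-mes and T2-epi grew side by side, from injection of 1 clone into both flanks of a mouse. This is not said of T3-mes with T4-epi. Whether the lines came from the sequenced tumors of the same number is not given in the sources used here. Oviduct tissue was wild-type bulk tissue, and the wild-type organoid lines came from C57BL/6 mice.

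Total counts were 936348 (Tumor4) to 3083507 (Tumor5) in the tumors, and a level of 3 reads, taken as the lowest that can be told from 0, was 1.06 to 3.15 CPM. Reads were not collapsed by molecular identifiers, so such limits cover counting error only. Counts of any pair of the tumors differed by a chi-square of at least 5.34 per gene, more than counting error alone gives. Because the reads were not collapsed, this value cannot show that libraries came from different tumors. Levels are CPM after TMM scaling of the 6 tumors. The CEL-Seq2 protocol reads each transcript near its 3′ end, so levels of different genes were set side by side without a correction for length. Values of cluster I are given in the order Tumor1 and Tumor3, and values of cluster II in the order Tumor2, Tumor4, Tumor5 and Tumor6.

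High-grade serous ovarian cancer is thought to arise mainly from secretory cells of the fallopian tube, the human counterpart of the mouse oviduct. Simple epithelia of this kind are held together by E-cadherin junctions and claudins, carry the simple keratins, and coat their surface with mucins and secreted antimicrobial proteins. Loss of these genes with gain of S100A4, vimentin and matrix proteins is the textbook picture of an epithelial-mesenchymal transition, and human tumors are sorted into differentiated, immunoreactive, mesenchymal and proliferative subtypes by related gene groups.

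The published tree was built on differentially expressed genes. Distances were recomputed here as Euclidean distances on regularized log2 counts of 14309 genes, over the tumors, the TBP clones and the wild-type oviductal organoids. Tumor1 and Tumor3 lay 80.9 apart. Distances between the clusters were 108 to 136 with a mean of 119, and distances within cluster II were 65.7 to 112 with a mean of 96.1. Cluster II was itself divided, because Tumor5 and Tumor6 lay 65.7 apart and Tumor2 and Tumor4 82.2 apart, while the distances between these pairs were 102 to 112. All tumors were farther from the cultures, at 149 to 201 for cluster I and 178 to 212 for cluster II. Both lowest values were distances to TBP clone 1, which had only 82239 counts. Among the other cultures the lowest distances were 160.2 for cluster I (Tumor3) and 191 for cluster II (Tumor4). The mean distance between the clusters was 1.23 times the mean distance within cluster II, and without Tumor2 the tree joined Tumor4 with Tumor1 and Tumor3 and set Tumor5 and Tumor6 apart.

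**Figure D1:**
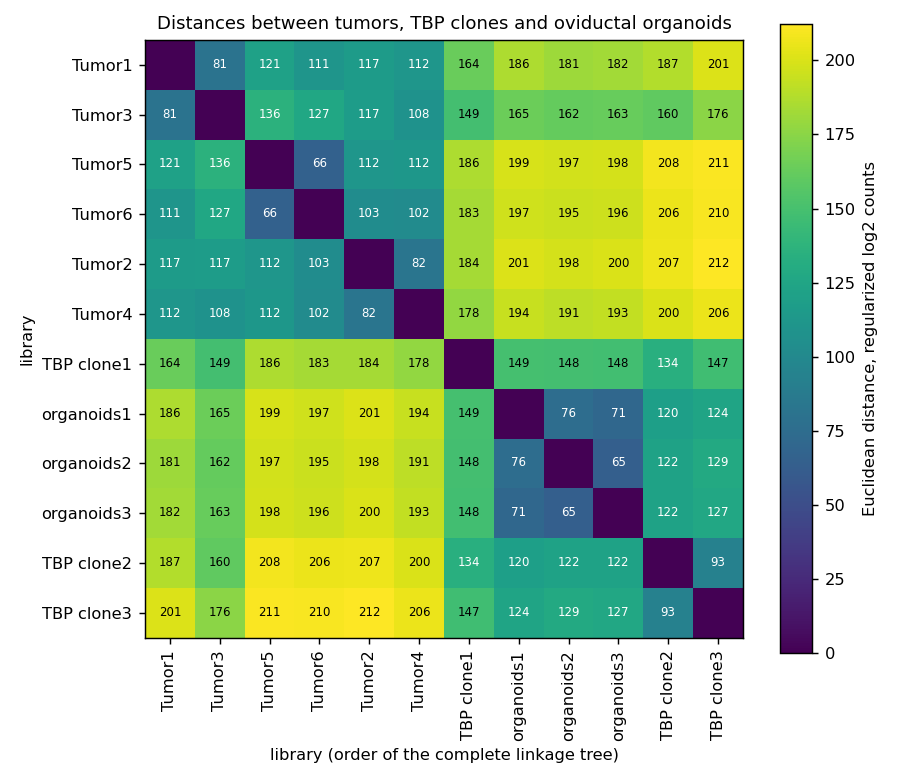
Heatmap of the Euclidean distance between each pair of 12 libraries (6 tumors, 3 TBP clones, 3 wild-type oviductal organoid lines) on regularized log2 counts of 14309 genes, with the libraries in the order of the complete linkage tree on both axes. The smallest distances among tumors were those of Tumor5 to Tumor6 (65.7), Tumor1 to Tumor3 (80.9) and Tumor2 to Tumor4 (82.2).

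More genes were counted as higher in cluster I than in cluster II. A gene was counted as higher in a cluster where its lowest tumor had at least 2 times the level of the highest tumor of the other cluster, with values under 3 reads set to 3 reads. By this rule 439 genes (4.18% of 10507) were higher in cluster I and 35 genes (0.333%) were higher in cluster II. The clusters were chosen on the expression of these same tumors, so nothing is read from these shares. Without a required ratio, 1632 genes (15.5%) in cluster I and 1213 genes (11.5%) in cluster II did not overlap with the other cluster, so the small shifts were more evenly divided than the large ones. At a ratio of at least 4 there were 211 genes of cluster I and 2 genes of cluster II. The median ratio was 3.96 (largest 54.9) for the 439 genes and 2.34 (largest 4.26) for the 35 genes. Just inside the limit of 2 stood *F3* (ratio 2.002) for cluster I, and just outside it stood *Zfp629* (1.987) for cluster I and *Murc* (1.998) for cluster II. Without Tumor1 324 genes of cluster II met the rule and without Tumor3 150 genes, all 35 among them in both cases, and fewer tumors leave more genes by construction.

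Genes that were higher in cluster I made up a visible part of the RNA. They took 4.84% and 8.01% of the counts of Tumor1 and Tumor3, against 0.483%, 0.622%, 0.558% and 0.552% in the tumors of cluster II. Of the 439 genes, 326 (74.3%) were higher in Tumor3 than in Tumor1, against 55.2% of all genes described. Within cluster II, Tumor4 was the highest tumor for 162 of the 439 genes (36.9%), against 26.5% of all genes. Each of the 3 deposited samples held a pair of tumors, and in the pairs that held a tumor of each cluster the median log2 difference of the 439 genes was 2.74 (Tumor1 over Tumor2) and 2.99 (Tumor3 over Tumor4). For the 35 genes it was -1.78 and -1.97. These signs follow from the choice of the genes.

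The leading genes of cluster I, those with the largest ratio among genes with a mean of at least 50 CPM, were mostly genes of the apical surface and secretions of epithelium. *Muc1*, a membrane mucin of glandular epithelium, had 173 and 273 CPM in cluster I and 1.90, 2.10, 1.41 and 1.34 CPM in cluster II. *Muc5b*, a gel-forming secreted mucin, had 311 and 129.9 CPM in cluster I and 0, 4.20, 0.353 and 0 CPM in cluster II. *Wfdc2*, which encodes the secreted protein HE4 used as a serum marker of ovarian cancer, had 636 and 773 CPM in cluster I and 10.5, 25.2, 20.5 and 26.2 CPM in cluster II. By the rule the ratio between the clusters was 54.9 for *Muc1*, 30.9 for *Muc5b* and 24.3 for *Wfdc2*, where that of *Muc1* is set by 2 reads in Tumor4 that count as 3 reads (3.15 CPM). Tumor1 was the higher tumor for *Muc5b* and Tumor3 for the other 2 genes.

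Cell surface proteases, their inhibitors and surface antigens formed a further part of the leading genes. *Tmprss2*, a transmembrane serine protease, had 241 and 338 CPM in cluster I and 1.90, 6.31, 0 and 1.34 CPM in cluster II. *Spint2*, a Kunitz-type inhibitor of such proteases, had 187 and 266 CPM in cluster I and 5.70, 8.41, 2.47 and 2.68 CPM in cluster II. *Gpa33*, a surface glycoprotein best known from intestinal epithelium, had 282 and 751 CPM in cluster I and 2.85, 7.36, 0 and 2.68 CPM in cluster II. *Prom1*, the membrane glycoprotein CD133 of apical protrusions, had 304 and 651 CPM in cluster I and 0.951, 12.6, 0.353 and 2.68 CPM in cluster II. Protease and inhibitor were thus high in the same 2 tumors, and Tumor4 was the highest tumor of cluster II for all 4 genes.

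The remaining leading genes of cluster I covered mucosal defence, the cytoskeleton and metabolism. *Dmbt1*, a secreted scavenger receptor of mucosal surfaces, had 224 and 136 CPM in cluster I and 2.85, 4.20, 0 and 1.34 CPM in cluster II, and *Sftpd*, the collectin surfactant protein D, had 145 and 298 CPM in cluster I and 0.951, 6.31, 0.353 and 0.671 CPM in cluster II. *Krt19*, the smallest keratin of simple epithelia, had 182 and 286 CPM in cluster I and 4.75, 4.20, 7.06 and 1.34 CPM in cluster II. *Cxcl17*, a chemokine of mucosal epithelium, had 132 and 275 CPM in cluster I and 0.951, 5.25, 0 and 2.01 CPM in cluster II. *Gabrp*, the pi subunit of the GABA-A receptor, *Adh1*, an alcohol dehydrogenase, *Alox12e*, a lipoxygenase, and *Plekhs1* had ratios of 24.8, 19.6, 18.4 and 24.1. *Adh1* kept a measurable level in all tumors of cluster II (9.51, 10.5, 10.6 and 9.39 CPM), as did *Wfdc2*, whereas 6 of the 15 leading genes had no read in Tumor5.

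**Figure D2:**
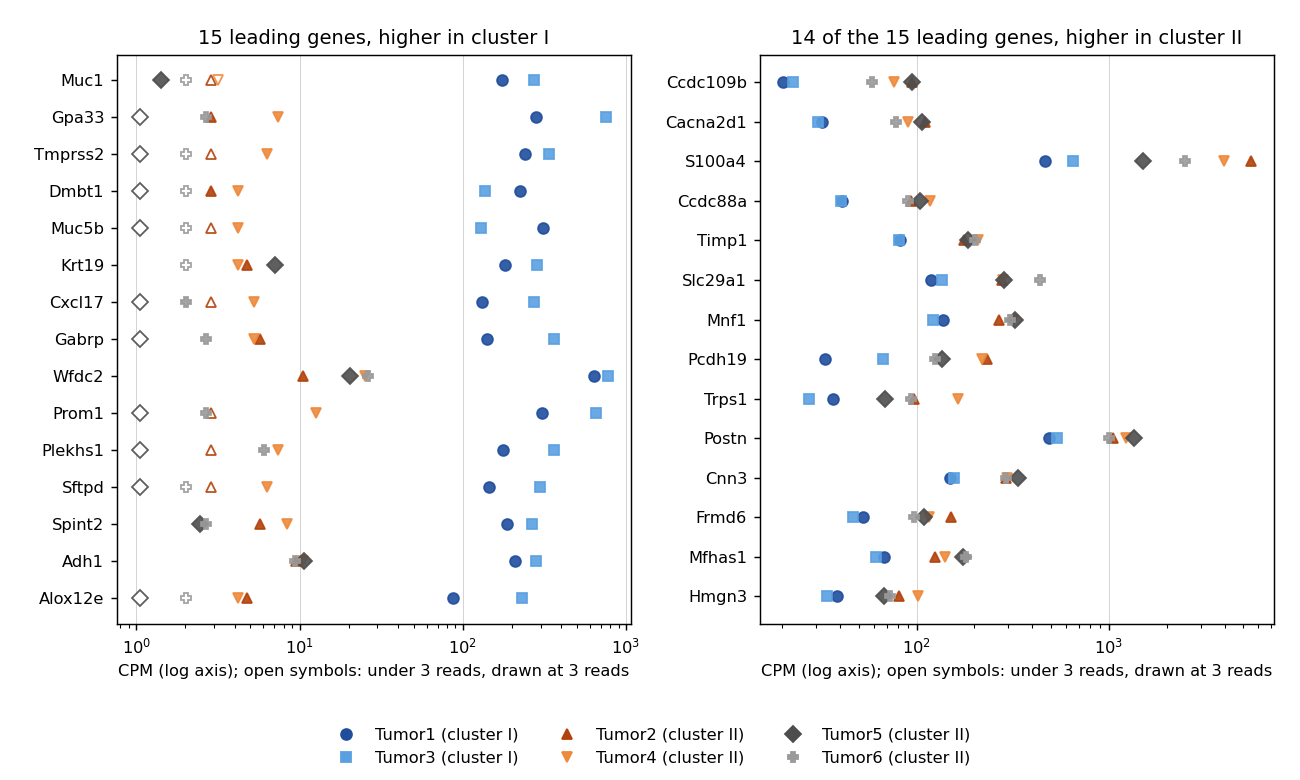
Level of the 15 leading genes of cluster I (left) and 14 of the 15 leading genes of cluster II (right) in each of the 6 tumors, in CPM on a log axis, with values under 3 reads drawn as open symbols at 3 reads. On the left the 2 tumors of cluster I lie at 87.4 CPM or more and those of cluster II at 26.2 CPM or less, while on the right the ratio between the clusters is 1.75 to 2.58.

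Cluster II had fewer and smaller leading genes, and 7 of the 15 reached a ratio of 2. *S100a4*, a calcium-binding protein of motile and mesenchymal cells, had the highest level of them, 467 and 647 CPM in cluster I and 5462, 3965, 1503 and 2488 CPM in cluster II. *Ccdc109b*, a paralog of the mitochondrial calcium uniporter, had 20.2 and 22.6 CPM in cluster I and 94.1, 76.7, 94.3 and 58.4 CPM in cluster II, and *Cacna2d1*, an auxiliary subunit of voltage-gated calcium channels, had 32.1 and 30.8 CPM in cluster I and 110.3, 90.4, 106 and 77.8 CPM in cluster II. Their ratios were 2.32, 2.58 and 2.42. *S100a4* was lower in Tumor5 and Tumor6 than in Tumor2 and Tumor4, whereas the tumors of cluster II lay within 2 times of each other for the other 2 genes.

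The other leading genes of cluster II had narrow gaps. *Timp1*, an inhibitor of matrix metalloproteinases, had 81.5 and 80.7 CPM in cluster I and 176, 209, 185 and 201 CPM in cluster II. *Ccdc88a*, the actin-binding protein girdin, had 41.03 and 40.6 CPM in cluster I and 93.2, 118, 104 and 90.5 CPM in cluster II. *Slc29a1*, a nucleoside transporter, had a ratio of 2.06. Below 2 followed *Mnf1* (1.94), *Pcdh19* (1.87), *Trps1* (1.87), *Postn* (1.86), *Cnn3* (1.86), *Frmd6* (1.85), *Mfhas1* (1.84) and *Hmgn3* (1.75). *Postn*, the matrix protein periostin, had 491 and 536 CPM in cluster I and 1045, 1221, 1348 and 1000.0 CPM in cluster II, and *Pcdh19*, a protocadherin, had 33.3 and 66.7 CPM in cluster I and 232, 219.7, 135 and 125 CPM in cluster II.

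Among the 35 genes, several with lower levels are known from striated muscle, and they were picked out after their values were seen. *Speg*, a striated muscle kinase, had 10.1 and 19.9 CPM in cluster I and 65.6, 60.96, 66.8 and 50.3 CPM in cluster II. *Cdh15*, the cadherin of muscle precursor cells, had 6.54 and 11.7 CPM in cluster I and 24.7, 78.8, 47.7 and 28.8 CPM in cluster II. *Phka1*, the muscle subunit of phosphorylase kinase, had 17.8 and 18.3 CPM in cluster I and 39.9, 37.8, 92.5 and 47.6 CPM in cluster II. The sum of 23 skeletal muscle genes was higher in Tumor1 (4952 CPM) than in Tumor2 and Tumor4 (1151 and 2295 CPM). That these 3 genes were lower in Tumor1 follows from the rule that chose them, and the source of their reads was not tested. *Prtg*, the gene with the largest ratio (4.26), had 1.19 and 1.56 CPM in cluster I and 7.60, 8.41, 25.1 and 8.05 CPM in cluster II, with few reads in both tumors of cluster I. *Greb1*, an estrogen-responsive gene, had 7.14 and 5.85 CPM in cluster I and 33.3, 25.2, 33.6 and 24.1 CPM in cluster II.

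The windows around the start sites of a few of these genes are shown with short motifs of factors known to act on epithelial genes. They come from RefSeq on GRCm38.p6 and run from 250 bases before to 50 bases after the start, in the direction of the gene. Capitals mark the E-box CAGGTG bound by ZEB and SNAIL proteins (CACCTG on the other strand), the grainyhead motif AACCNGTT, the ETS motif CAGGAAG and the TATA box TATAAA, each searched on both strands. *Muc1* (chr3:89228806-89229105, plus strand) and *Epcam* (chr17:87635729-87636028, plus strand) held 2 E-boxes each, *Spint2* (chr7:29281928-29282227, minus strand) held 3. *Tmprss2* (chr16:97611146-97611445, minus strand) held none of the motifs, and *S100a4* (chr3:90603520-90603819, plus strand) held no E-box. These windows do not stand for the groups, since other leading genes of cluster I (*Gpa33*) had no E-box either and 8 genes of cluster II had it.
Muc1: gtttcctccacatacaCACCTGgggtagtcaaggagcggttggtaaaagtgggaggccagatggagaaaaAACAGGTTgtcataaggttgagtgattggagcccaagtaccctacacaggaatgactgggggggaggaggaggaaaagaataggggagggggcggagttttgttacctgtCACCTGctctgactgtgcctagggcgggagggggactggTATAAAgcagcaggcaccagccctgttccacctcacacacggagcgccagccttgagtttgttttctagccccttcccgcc
Epcam: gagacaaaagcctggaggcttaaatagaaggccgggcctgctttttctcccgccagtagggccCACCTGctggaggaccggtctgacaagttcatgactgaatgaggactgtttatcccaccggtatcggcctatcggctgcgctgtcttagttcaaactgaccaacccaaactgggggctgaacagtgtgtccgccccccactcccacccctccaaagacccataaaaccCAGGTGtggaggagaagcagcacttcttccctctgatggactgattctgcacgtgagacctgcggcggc
Spint2: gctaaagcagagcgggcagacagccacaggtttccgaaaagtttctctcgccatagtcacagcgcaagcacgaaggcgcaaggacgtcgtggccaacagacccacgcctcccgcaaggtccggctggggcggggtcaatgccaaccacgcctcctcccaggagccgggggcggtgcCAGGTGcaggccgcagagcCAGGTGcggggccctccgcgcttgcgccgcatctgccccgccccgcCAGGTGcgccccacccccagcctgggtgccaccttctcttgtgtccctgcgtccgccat
Tmprss2: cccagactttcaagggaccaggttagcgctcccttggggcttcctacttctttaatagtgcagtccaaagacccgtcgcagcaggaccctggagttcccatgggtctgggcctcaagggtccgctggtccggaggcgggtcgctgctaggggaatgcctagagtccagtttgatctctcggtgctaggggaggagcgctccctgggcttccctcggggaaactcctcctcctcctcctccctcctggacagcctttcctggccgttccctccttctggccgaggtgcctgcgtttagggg
S100a4: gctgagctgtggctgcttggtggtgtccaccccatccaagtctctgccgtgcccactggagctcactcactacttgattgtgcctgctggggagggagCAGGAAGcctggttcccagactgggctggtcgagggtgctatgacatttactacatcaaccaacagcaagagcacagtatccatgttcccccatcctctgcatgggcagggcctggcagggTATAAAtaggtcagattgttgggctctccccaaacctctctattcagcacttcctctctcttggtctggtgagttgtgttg

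An E-box CAGGTG was in the window of 131 of the 318 genes of cluster I that matched a RefSeq promoter (41.2%). It was in 19.9% of the 8283 genes described that matched and in 20.2% of all 32851 promoters of the table. Of the genes of cluster II, 29 matched and 8 of them held it (27.6%). The ETS motif was in 21.1% of the windows of cluster I and 12 of 29 (41.4%) of cluster II, against 14.8% of the genes described and 13.3% of all promoters. Shares of the grainyhead motif were 4.72%, 3.45%, 2.2% and 2.09% in the same order, and those of TATAAA 17.3%, 6.9%, 9.45% and 13.6%. These are counts of letters in windows, and binding was not measured.

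Genes of simple epithelium and its junctions were the clearest group. Of 28 described genes of a list of 33, 22 were higher in cluster I, 24 did not overlap and none was higher in cluster II, where the shares over all genes were 4.18%, 15.5% and 0.333%. The median log2 difference was 3.69 against -0.011 over all genes described. Their summed level was 3899.9 and 5763 CPM in cluster I and 659.7, 700.0, 554 and 648 CPM in cluster II. In whole tissue, fewer epithelial cells and less RNA of these genes per cell cannot be told apart. *Cdh1*, E-cadherin, had 821 and 898 CPM in cluster I and 89.3, 96.7, 4.59 and 58.4 CPM in cluster II, and *Epcam*, a surface adhesion molecule of epithelium, had 217 and 421 CPM in cluster I and 8.55, 14.7, 0 and 2.01 CPM in cluster II. *Cldn7*, a tight junction claudin, had 74.9 and 99.1 CPM in cluster I and 0, 6.31, 0 and 0 CPM in cluster II, and *Elf3*, an epithelial ETS factor, had 155 and 359 CPM in cluster I and 1.90, 10.5, 1.41 and 4.02 CPM in cluster II. No tumor of cluster II reached the level of either tumor of cluster I for these 4 genes, but *Cdh1* was well above the floor in Tumor2, Tumor4 and Tumor6.

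The simple keratins and desmosomal genes were less uniform within cluster II. *Krt7* had 589 and 833 CPM in cluster I and 2.85, 21.02, 67.5 and 103 CPM in cluster II, and *Krt8* had 596 and 912 CPM in cluster I and 164, 47.3, 233 and 212 CPM in cluster II. *Krt18*, the partner of keratin 8, had 256 and 354 CPM in cluster I and 16.2, 16.8, 113 and 141 CPM in cluster II and a ratio of 1.82. For *Krt7* and *Krt18*, Tumor5 and Tumor6 were above Tumor2 and Tumor4. *Dsp*, the desmosomal plaque protein desmoplakin, had 98.7 and 206 CPM in cluster I and 205, 232, 0 and 0 CPM in cluster II, so that the clusters overlapped and Tumor5 and Tumor6 had no read. *Tjp1*, the tight junction scaffold ZO-1, also overlapped, with 31.5 and 55.8 CPM in cluster I and 48.5, 52.5, 24.7 and 30.2 CPM in cluster II.

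Of the oviduct secretory list, 8 of 14 described genes were higher in cluster I (4.18% of all genes), 11 did not overlap (15.5% of all genes) and none was higher in cluster II. *Sox17*, a transcription factor of the Mullerian tract, had 133 and 263 CPM in cluster I and 6.65, 21.02, 9.89 and 17.4 CPM in cluster II. *Pax8*, the diagnostic lineage marker of serous cancer, had 27.4 and 45.6 CPM in cluster I and 0, 0, 24.7 and 3.35 CPM in cluster II. Tumor5 was thus close to Tumor1 for *Pax8*, while Tumor2 and Tumor4 had no read. *Wt1* had 41.6 and 69.4 CPM in cluster I and 0, 6.31, 18.4 and 8.72 CPM in cluster II, and *Ovgp1*, the oviductal glycoprotein, was low in all tumors, with 11.3 and 24.2 CPM in cluster I and 7.60, 10.5, 9.18 and 4.69 CPM in cluster II. *Cd24a*, a surface glycoprotein of the same list, had 1376 and 2506 CPM in cluster I and 91.3, 189, 159 and 217 CPM in cluster II. Of a list for the differentiated subtype, which shares many genes with both lists and is not the signature used by the study, 19 of 26 described genes were higher in cluster I and none in cluster II. *Bcam*, a laminin-binding adhesion molecule, had 231 and 239 CPM in cluster I and 14.3, 21.02, 23.3 and 20.1 CPM in cluster II, and *Pigr*, the receptor that carries IgA across epithelium, had 133 and 607 CPM in cluster I and 0.951, 26.3, 0 and 6.04 CPM in cluster II.

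Antimicrobial and complement proteins were among the most abundant genes that were higher in cluster I. *Lcn2*, which encodes the iron-siderophore-binding lipocalin 2, had 5701 and 13454 CPM in cluster I and 54.2, 515, 23.7 and 83.2 CPM in cluster II. *Ltf*, lactoferrin, had 1248 and 3133 CPM in cluster I and 8.55, 94.6, 0.353 and 15.4 CPM in cluster II. *C3*, the central complement component, had 1159.6 and 2502 CPM in cluster I and 190.1, 143, 147 and 89.2 CPM in cluster II, and *Clu*, clusterin, had 2639 and 5012 CPM in cluster I and 49.4, 107, 497 and 410.5 CPM in cluster II. The level of all 4 genes was higher in Tumor3 than in Tumor1. *Lcn2* and *Ltf* are made by neutrophils as well as by epithelium, and in epithelial culture *Lcn2* had 4576, 7330.1 and 6397 CPM in the wild-type oviductal organoids and *Ltf* 4114, 5984 and 5289.6 CPM.

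Neutrophil genes moved in the same direction as the epithelial genes. Of 17 described genes, 10 were higher in cluster I and none in cluster II, against 4.18% and 0.333% of all genes. Without *Lcn2* and *Ltf*, 8 of 15 genes were higher and the summed level was 1742 and 2145 CPM in cluster I and 147, 972, 64.6 and 91.2 CPM in cluster II. *Cxcr2*, a chemokine receptor of neutrophils, had 72.6 and 42.1 CPM in cluster I and 1.90, 5.25, 2.12 and 3.35 CPM in cluster II, and *Il1b*, the cytokine interleukin 1 beta, had 421 and 117 CPM in cluster I and 13.3, 22.1, 18.01 and 15.4 CPM in cluster II. *S100a8* had 321 and 695 CPM in cluster I and 13.3, 226, 2.12 and 9.39 CPM in cluster II, so that Tumor4 came closer to cluster I than the other tumors of cluster II. The granule genes *Camp*, *Mpo* and *Elane*, which define immature neutrophils, were at 1.56 CPM or less in every tumor. The part of neutrophils in the level of the other genes was not tested.

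Chemokine, complement and detoxification genes gave mixed counts, with no gene higher in cluster II by the rule and 4.18% of all genes higher in cluster I. Of 33 described chemokine and cytokine genes, 8 were higher in cluster I, among them *Cxcl5*, a neutrophil attractant, with 1468 and 3364 CPM in cluster I and 66.5, 282, 1.77 and 14.8 CPM in cluster II, and *Ccl20* with 41.03 and 53.4 CPM in cluster I and 0, 0, 0 and 0.671 CPM in cluster II. *Ccl2*, a monocyte attractant, overlapped, with 386 and 149 CPM in cluster I and 706, 219, 890.4 and 2285 CPM in cluster II. Of 17 complement genes, 5 were higher in cluster I, and *Cfi*, the complement factor I protease, was at least 17.9-fold higher, at 56.5 and 129 CPM against no more than 3 reads in each tumor of cluster II. The macrophage-derived *C1qa*, *C1qb* and *C1qc* overlapped, *C1qb* having 517 and 206 CPM in cluster I and 1179.6, 412, 695 and 969.8 CPM in cluster II. Of 24 genes of glutathione metabolism and the NRF2 response, 6 were higher in cluster I. The glutathione transferase gene *Gsta4* had 296 and 392 CPM in cluster I and 7.60, 21.02, 9.18 and 30.9 CPM in cluster II, and *Gsta3* was at least 16.8-fold higher, at 52.9 and 86.98 CPM against no more than 3 reads in each tumor of cluster II. *Nqo1*, the classical NRF2 target, was at 3.80 CPM or less in all tumors.

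Genes of the epithelial-mesenchymal transition leaned to the side of cluster II, while most of them and most matrix and fibroblast genes overlapped. Of 21 described genes for factors and effectors of the epithelial-mesenchymal transition, 1 (*S100a4*) was higher in cluster II (0.333% of all genes), 9 did not overlap with cluster I on the side of cluster II (11.5% of all genes) and 12 overlapped, with a median log2 difference of -0.89. Their sum was 7147 and 6589.9 CPM in cluster I and 21309, 18447, 11801 and 13055 CPM in cluster II, so that the sums did not overlap. *Vim*, vimentin, had 346 and 248 CPM in cluster I and 447, 1293, 1110.1 and 897 CPM in cluster II, and *Axl*, a receptor tyrosine kinase, had 184 and 167 CPM in cluster I and 399, 245, 429.9 and 509.7 CPM in cluster II. *Zeb1*, which represses *Cdh1*, had 32.1 and 35.9 CPM in cluster I and 108, 39.9, 66.05 and 54.3 CPM in cluster II, a gap of 1.11 times. *Zeb2* and *Twist1* overlapped, *Twist1* having 32.1 and 42.9 CPM in cluster I and 119, 119.8, 42.03 and 44.3 CPM in cluster II. Of 53 collagen and fibrillar matrix genes none was higher by the rule in either cluster, and 14 did not overlap on the side of cluster II (11.5% of all genes). Their sum was 42594 and 32370.0 CPM in cluster I and 79730.0, 97477, 30346 and 43888 CPM in cluster II. It was high in Tumor2 and Tumor4, and the remaining tumors were nearer to each other. Of 20 described fibroblast genes 18 overlapped (72.9% of all genes did). The fibroblast sum was 3683 and 2185 CPM in cluster I and 8732.5, 7456, 3474 and 4855 CPM in cluster II, so the sums overlapped.

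Cell cycle genes were somewhat higher in cluster II. Of 50 described genes 20 did not overlap on that side (11.5% of all genes), none on the other (15.5% of all genes), and none reached a ratio of 2, with a median log2 difference of -0.55. *Cenpa*, the centromeric histone H3 variant, had 69.6 and 92.1 CPM in cluster I and 150.2, 218, 142 and 215 CPM in cluster II, and *Birc5*, survivin, had 74.3 and 66.3 CPM in cluster I and 106, 190.2, 245 and 267 CPM in cluster II. *Top2a*, a topoisomerase of dividing cells, overlapped, with 120.1 and 153 CPM in cluster I and 134, 173, 218 and 178 CPM in cluster II. The summed level of the list was 2415 and 3307 CPM in cluster I and 3358, 4783, 4124 and 4924 CPM in cluster II, so Tumor3 and Tumor2 hardly differed in sum.

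**Figure D3:**
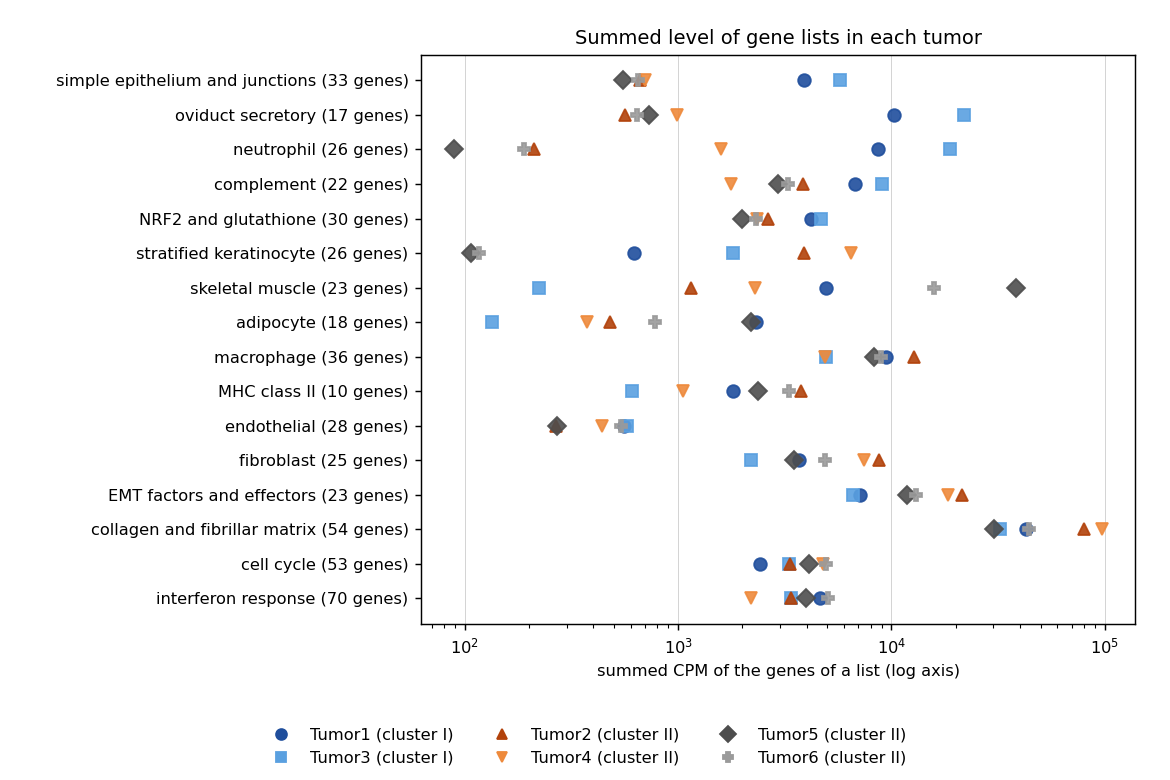
Summed level in CPM (log axis) of 16 gene lists in each of the 6 tumors, with the number of genes in the table beside each name. The tumors of cluster I stand apart for simple epithelium, oviduct secretory and neutrophil genes, Tumor2 and Tumor4 for stratified keratinocyte genes, and Tumor5 and Tumor6 for skeletal muscle genes.

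Within cluster II the 2 pairs of the tree were compared by the same rule. The pairs were taken from these same values, so nothing is read from the shares. Tumor5 and Tumor6 also shared a deposited sample, which cannot be told apart from their likeness. Tumor2 and Tumor4 exceeded Tumor5 and Tumor6 by a ratio of at least 2 for 338 genes (3.22%), and Tumor5 and Tumor6 exceeded the other pair for 357 genes (3.4%). Keratinocyte genes of stratified epithelium led the first group, with 20 of 22 described genes higher in Tumor2 and Tumor4 by that ratio (3.22% of all genes were). *Krt6b*, a keratin of activated keratinocytes, had 27.4 and 174 CPM in cluster I and 648, 1669, 0 and 0 CPM in cluster II, and *Krt5*, the keratin of basal cells, had 117 and 309 CPM in cluster I and 362, 818, 0 and 0 CPM in cluster II. *Krt16* had 13.1 and 79.6 CPM in cluster I and 329, 612, 0 and 0 CPM in cluster II, and *Krt6a* had 16.7 and 168 CPM in cluster I and 264, 649.5, 0 and 0 CPM in cluster II. All 4 keratins had no read in Tumor5 and Tumor6, and the tumors of cluster I lay between both pairs. The sum of the list was 621 and 1811 CPM in cluster I and 3883, 6461, 107 and 116 CPM in cluster II. Tumor3 was above Tumor1 for 21 of 22 genes, against 55.2% of all genes described. The cornified envelope gene *Lor*, known from the epidermis, had 3.57 and 8.97 CPM in cluster I and 149, 7.36, 0.706 and 1.34 CPM in cluster II and was thus mostly read in Tumor2. Whether these reads came from tumor cells or from skin of the host was not tested.

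*Rhox5*, a homeobox gene of the reproductive tract, stood among the keratins with 5.95 and 137 CPM in cluster I and 499, 581, 0 and 0 CPM in cluster II. It is no keratinocyte gene, and its levels were 428 and 737 CPM in the cultures T1-mes and T3-mes against 15.7 and 9.64 CPM in the epithelial cultures T2-epi and T4-epi.

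Skeletal muscle genes led the second group. All 23 described genes of the list were higher in Tumor5 and Tumor6 than in Tumor2 and Tumor4 by that ratio (3.4% of all genes were), each was highest in Tumor5, and each was lowest in Tumor3. Their sum was 4952 and 222 CPM in cluster I and 1151, 2295, 38192 and 15796 CPM in cluster II. *Actn3*, the alpha-actinin of fast fibres, had 55.3 and 3.12 CPM in cluster I and 16.2, 6.31, 526 and 209.9 CPM in cluster II, and *Des*, the muscle filament desmin, had 59.5 and 10.9 CPM in cluster I and 17.1, 18.9, 273 and 192 CPM in cluster II. *Ryr1*, the calcium release channel of muscle, had 20.2 and 4.29 CPM in cluster I and 9.51, 9.46, 163 and 104 CPM in cluster II. The order of the tumors was the same for these 3 genes apart from that of Tumor2 and Tumor4. *Ankrd1*, a stretch-induced gene of muscle that epithelial cultures also express, had 139 and 76.8 CPM in cluster I and 66.5, 54.7, 1076 and 989 CPM in cluster II and *Mustn1* had 41.6 and 6.24 CPM in cluster I and 16.2, 22.1, 219 and 188 CPM in cluster II. In culture *Ankrd1* had 138 and 143 CPM in the mesenchymal-mixed lines (T1-mes, T3-mes) and 174 and 134 CPM in the epithelial lines (T2-epi, T4-epi), where *Actn3* and *Des* had no read. The part of host muscle in the difference was not tested.

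**Figure D4:**
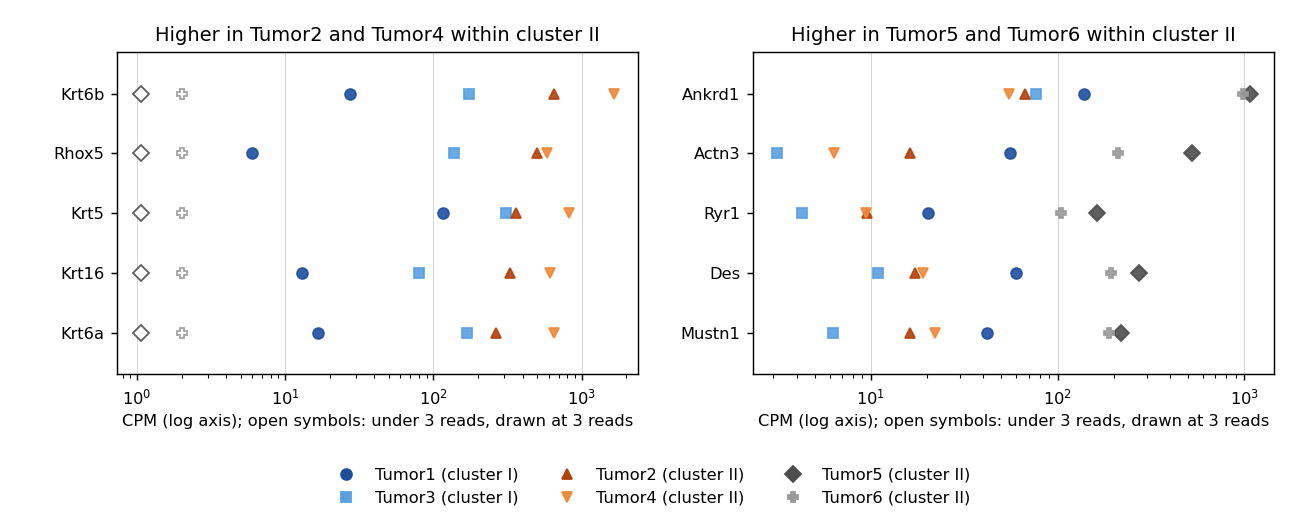
Level of the 5 genes with the largest ratio in each direction between Tumor2 with Tumor4 and Tumor5 with Tumor6, in CPM on a log axis for all 6 tumors, with values under 3 reads drawn as open symbols at 3 reads. The genes on the left had no read in Tumor5 and Tumor6, and Tumor3 is the lowest tumor for 4 of the 5 genes on the right.

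The tumors of cluster I also differed from each other. Tumor1 exceeded Tumor3 by at least 2 times for 837 genes (7.97% of the genes described), and Tumor3 exceeded Tumor1 for 573 genes (5.45%). Trefoil factors of mucous epithelium, singled out after their values were seen, were read almost only in Tumor1: *Tff1* had 302 and 3.51 CPM in cluster I and 1.90, 0, 0 and 0 CPM in cluster II, *Tff2* had 339 and 1.56 CPM in cluster I and 0.951, 0, 0 and 0 CPM in cluster II and *Tff3* had 309.8 and 0.390 CPM in cluster I and 0, 0, 0 and 0 CPM in cluster II. Among genes higher in Tumor3 was *Slc26a4*, the anion exchanger pendrin, with 40.4 and 376 CPM in cluster I and 0, 4.20, 0 and 0.671 CPM in cluster II, and *Sprr2d*, a small proline-rich protein, with 79.7 and 566 CPM in cluster I and 38.97, 156, 0 and 2.01 CPM in cluster II. *Mycn*, a MYC family oncogene, had 136 and 45.6 CPM in cluster I and 6.65, 2.10, 1.77 and 0 CPM in cluster II and was higher in Tumor1. All 12 described adipocyte genes were higher in Tumor1 than in Tumor3, whereas 55.2% of all genes described were higher in Tumor3. The sum of that list was 2315 and 134 CPM in cluster I and 477, 374, 2196 and 778 CPM in cluster II. The adipokine gene *Cfd* had 337 and 3.12 CPM in cluster I and 52.3, 19.97, 18.4 and 93.9 CPM in cluster II, and the muscle gene *Pvalb* had 172 and 0.390 CPM in cluster I and 36.1, 27.3, 1031 and 251 CPM in cluster II, so fat and muscle genes were both low in Tumor3.

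Most genes of other host cells overlapped between the clusters, as did 72.9% of all genes described. Over all genes 4.18% were higher in cluster I by the rule and 0.333% in cluster II, and nothing is read from the small counts here. The sum of 36 macrophage genes was 9430.4 and 4925 CPM in cluster I and 12774, 4892, 8239 and 8883 CPM in cluster II, with 2 of 35 described genes (*Cd14* and *Cd300lf*) higher in cluster I and none in cluster II. MHC class II genes had a sum of 1813 and 609 CPM in cluster I and 3766, 1051, 2369.6 and 3293 CPM in cluster II, and none of the 6 described genes was higher in either cluster. Tumor3 and Tumor4 were the lowest tumors for both lists, and these shared a deposited sample. Of 20 endothelial and 20 fibroblast genes described, 1 endothelial gene was higher in cluster I and 1 fibroblast gene in cluster II, namely *Sox17* and *S100a4*, which other lists hold as well. The endothelial sum, with *Sox17* in it, was 560 and 575 CPM in cluster I and 267, 441, 269 and 539 CPM in cluster II. That of dendritic and mast cell genes was 417 and 201 CPM in cluster I and 146, 125, 120 and 71.8 CPM in cluster II. Neither of these sums overlapped. Of 25 lymphocyte genes in the table, 10 had no read in any tumor, among them *Cd3e*, *Cd8a*, *Ms4a1*, *Ncr1* and *Nkg7*, which define T, B and NK cells. Interferon response genes overlapped for 44 of 51 described genes (72.9% of all genes did), and their sum was 4617 and 3397 CPM in cluster I and 3381, 2207, 3969 and 5065 CPM in cluster II.

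The targeted genes given here had no ratio of 2 between the clusters. Every tumor of cluster II was slightly above both tumors of cluster I for *Trp53*, and *Brca1* overlapped. *Trp53* had 26.8 and 21.1 CPM in cluster I and 38.97, 28.4, 39.2 and 62.4 CPM in cluster II, and *Brca1* had 8.92 and 20.7 CPM in cluster I and 11.4, 12.6, 7.77 and 8.05 CPM in cluster II. Reads at the gene's end do not show an sgRNA-induced change, and the host contributes reads of both genes, so these levels do not check the genotype. *Nf1*, not targeted in TBP clones, had 13.1 and 21.1 CPM in cluster I and 18.1, 23.1, 11.3 and 12.1 CPM in cluster II. *Foxj1*, the master regulator of motile cilia, had 22.6 and 27.7 CPM in cluster I and 0, 5.25, 1.06 and 2.01 CPM in cluster II, a ratio of 4.30, while the axonemal gene *Dnali1* had at most 0.780 CPM and the transcription factor gene *Pax2* at most 0.951 CPM. Of 38 motile cilium genes in the table, 25 were at or under 3 reads in every tumor.

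Cultures show the level of these genes without host tissue. The question was whether genes that separate the tumor clusters also separate mesenchymal-mixed from epithelial tumor-derived organoids. With T1-mes and T3-mes against T2-epi and T4-epi, edgeR's quasi-likelihood test called 98 of 9775 genes higher (1% of genes) and 12 lower (0.123%) at a Benjamini-Hochberg adjusted p under 0.05, and 212 and 28 genes with the deposited pairs (T1-mes with T2-epi, T3-mes with T4-epi) as a block. Of the 439 genes of cluster I, 386 were tested, the others having too few reads, and 5 were called lower (1.3%, 10 genes with the block) and 1 higher (0.259%). The 5 lower genes were *Gabrp*, *Slc26a4*, *Car8*, *Cbs* and *Padi1*, and the higher gene was *Sprr2e*, all named after their values were seen except *Gabrp* and *Slc26a4*. *Gabrp* had 22.1 and 8.57 CPM in the mesenchymal-mixed lines T1-mes and T3-mes, against 222 and 249.7 CPM in the epithelial lines T2-epi and T4-epi (log2 fold change -3.93, standard error 0.53, adjusted p = 0.0366). The estimate was below 0 for 348 of the 386 genes and above 0 for 38 (9.84%, against 51.2% of all genes). The median was -1.44, against 0.021 over all genes. A gene read only in the epithelial lines also had enough reads to be tested, so nothing is read from these shares.

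T1-mes and T3-mes were unlike each other for many of these genes. *Epcam* had 263 and 31.6 CPM in the mesenchymal-mixed and 479 and 653 CPM in the epithelial lines, in the same order, and *Muc1* had 109 and 7.50 and 141 and 167 CPM. *Lcn2* had 8373 and 753 and 5318 and 6490.0 CPM. For all 3 genes T1-mes lay nearer to the epithelial lines than T3-mes, which was far below them. Without T1-mes, 748 genes were called higher and 710 lower, and 270 genes of cluster I were among the lower ones. Without T2-epi or without T4-epi no gene was called, and the full comparison had 883 genes higher and 495 lower at an unadjusted p under 0.05. DESeq2 called 391 and 107 genes.

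Some genes of cluster II were higher in the mesenchymal-mixed organoids. Of the 35 genes 22 had enough reads to be tested, and 4 were called higher (18.2%, against 1% of all genes) and none lower, with 21 estimates above 0 and a median of 2.74. The read filter also admits a gene read in only 1 kind of line, and the direction of such a gene is fixed by that. Nothing is therefore read from these shares, and the same limit holds for genes of cluster I read only in the epithelial lines. *S100a4* had 1585 and 1929 CPM in the mesenchymal-mixed lines and 15.7 and 24.1 CPM in the epithelial lines (log2 fold change 6.47, standard error 0.47, edgeR adjusted p = 0.0236). *Cacna2d1* had 72.4 and 48.7 and 0 and 1.07 CPM (6.67, standard error 0.86, edgeR adjusted p = 0.0321). *Ccdc109b* had 82.5 and 95.9 and 1.57 and 4.82 CPM (4.79, standard error 0.60, edgeR adjusted p = 0.0303), and *Ccdc88a* 210.2 and 407 and 14.7 and 21.97 CPM (4.08, standard error 0.51, edgeR adjusted p = 0.0306). Both mesenchymal-mixed lines exceeded both epithelial lines for these 4 genes. The number of genes of cluster II called higher was 0 without T2-epi or without T4-epi, 11 without T1-mes and 9 by DESeq2. With the block 8 genes were called higher, namely these 4, *Fut10*, *Greb1*, *Lix1l* and *Speg*, named after their values were seen. *Timp1* had 36.2 and 110.3 and 12.1 and 4.29 CPM and was not called (3.17, standard error 0.77, edgeR adjusted p = 0.136). *Pcdh19* and *Zeb1*, which had ratios under 2 in the tumors, were also called higher, with log2 fold changes of 6.13 (standard error 0.62) and 6.90 (standard error 0.57), both at an edgeR adjusted p of 0.0236. *Postn*, leading in cluster II, was not tested, having no read in 3 of these lines and 6.43 CPM in T3-mes.

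Presence was counted in 4 epithelial cultures, and the mesenchymal-mixed lines were not among them. Of the 439 genes of cluster I, 370 (84.3%) were above 3 reads in all of TBP clone 2, TBP clone 3, T2-epi and T4-epi, close to the 82.6% of all genes described. Of the 35 genes of cluster II, 11 (31.4%) were. TBP clone 1 was left out here because it had only 82239 counts. Some leading genes of cluster I were read in the tumors more than in any culture: *Muc5b* had no read in the wild-type oviductal organoids and at most 24.2 CPM in the TBP clones and tumor-derived lines, and *Dmbt1* had no read in those organoids and at most 24.7 CPM in the other lines.

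The last comparison asked which of these genes are genes of normal tissue rather than of cultured epithelium. Between 3 oviduct tissue samples and 3 wild-type oviductal organoid lines, edgeR's quasi-likelihood test called 2298 of 9477 genes higher in tissue (24.2%) and 1771 lower (18.7%). Of the genes of cluster I 329 were tested, and 64 were higher in tissue (19.5%) and 137 lower (41.6%), with a median log2 fold change of -0.49. *Cxcl17* had 22.4, 23.2 and 10.8 CPM in tissue and 262, 363 and 330.4 CPM in organoids (log2 fold change -4.04, standard error 0.27, edgeR adjusted p = 5.16e-07). *Wfdc2* had 501, 369 and 387 CPM and 1832, 3294 and 3201 CPM (-2.72, standard error 0.25, edgeR adjusted p = 4.89e-06). Both genes were thus lower in whole oviduct than in cultured epithelium. *Sox17* went the other way, with 904, 777 and 814 CPM and 309.6, 206 and 235 CPM (1.75, standard error 0.18, edgeR adjusted p = 1.17e-05). Of the genes of cluster II 15 were tested, and 9 were higher in tissue (60%) and 2 lower (13.3%), with a median of 1.39. A gene read only in tissue or only in organoids also passed the filter, so nothing is read from the shares of either gene group. *S100a4* had 167, 179 and 74.2 CPM in tissue and 5.79, 7.47 and 2.90 CPM in organoids (4.72, standard error 0.40, edgeR adjusted p = 2.96e-06). *Slc29a1* was lower in tissue (-0.95, standard error 0.30, edgeR adjusted p = 0.0225).

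**Figure D5:**
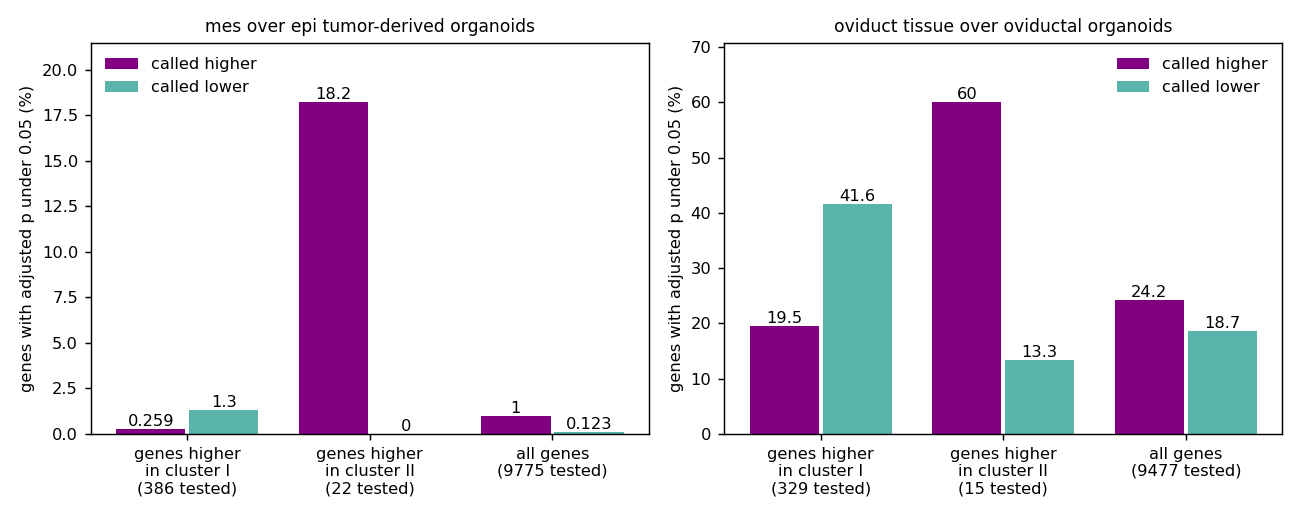
Share of genes (in %) called higher or lower at an edgeR adjusted p under 0.05 in mesenchymal-mixed over epithelial tumor-derived organoids (left) and in oviduct tissue over oviductal organoids (right), for the genes of cluster I, the genes of cluster II and all genes tested. Called higher were 18.2% (4 of 22) and 60% (9 of 15) of the genes of cluster II, against 1% and 24.2% of all genes. In oviduct tissue 41.6% of the genes of cluster I were called lower, against 18.7% of all genes. The read filter also admits genes read in only 1 kind of library, so nothing is read from these shares.

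Chromosomes were compared because the study reported abnormal chromosome numbers in its oviduct-TBP clones. The median log2 difference between the clusters ran from -0.20 on chromosome 8 to 0.20 on chromosome 7 over the chromosomes examined (1 to 17, 19 and X). Single tumors departed from the median tumor by -0.27 on chromosome 19 and 0.23 on chromosome X, both in Tumor4. A part of the reads comes from host cells, which lowers any such shift by an amount that was not measured.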

How the data were processed

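RNA of tissues and tumors had been extracted with Trizol and that of organoids with an RNeasy kit, and libraries were made by CEL-Seq2 and sequenced on a NextSeq500. The authors aligned reads with BWA to GRCm38 and deposited whole-number read counts per gene, without normalization and without collapsing molecular identifiers. CEL-Seq2 counts fragments near the 3′ end, so levels of different genes are compared without correction for length. From these counts 1 spike-in entry (1 count) was left out. Clusters were taken from the published tree. CPM were scaled with the TMM factors of edgeR 4.0.16 (R 4.3.3) over the 6 tumors. Levels of other libraries were scaled over all 27 libraries and set to the scale of the tumors, which moved no tumor by more than 4.1%. Distances used the regularized log of DESeq2 1.42.0, blind to groups, and complete linkage. Organoid and tissue comparisons used edgeR's quasi-likelihood test after filterByExpr, with Benjamini-Hochberg adjusted p-values and a threshold of 0.05. The test was checked on simulated counts, where it recovered most changed genes in the tissue comparison and none in the comparison of tumor-derived organoids at the size simulated, so a gene not called there is not shown to be unchanged.

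Named genes are the 15 genes with the largest ratio in each direction at a mean of at least 50 CPM, up to 5 members of each of 38 gene lists (those with the largest ratio at a mean of at least 20 CPM, otherwise those with the highest mean), the targeted genes, genes the study names, and the 5 leading genes in each direction within cluster II. Other names were chosen after their values were seen, which holds for the trefoil factors, the muscle genes of cluster II and further list members. The members and lists were chosen with earlier results of these data known, and the lists were written from general knowledge. Gene positions were matched to GENCODE vM21 for 17121 genes by symbol and 982 by an older symbol. Alternatives were other size factors, filters, ratios, DESeq2, each library left out, a block for the sample number, and other distances. Same-numbered libraries deviated together with correlations of 0.0099, 0.0893 and 0.0201 (tissue and organoids) and 0.0793 (tumor-derived organoids), so the numbers were not taken to pair tissue with organoids. T1-mes and T2-epi came from adjacent tumors of the same clone per the study's methods, so the fit with the pair as a block is given beside the counts. The study calls the tissue samples and the lines independent, and the animal behind each library is not named. Some genes, among them part of the targeted genes, are not reported here. Python 3.11.15 with matplotlib 3.10.9 was used for the figures.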

Additional observations from a re-analysis of the deposited data

Results flagged for a closer look

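Among 78 list sums and leading genes examined within the 4 tumors of cluster II, 2 genes had a tumor far from the other 3. *Slc29a1*, a nucleoside transporter, had 279, 282, 283 and 439 CPM in Tumor2, Tumor4, Tumor5 and Tumor6, and the gap of Tumor6 to its neighbour was 0.963 of the whole range of the cluster, above the critical value of Dixon's test at the 95% level for 4 samples. *Cnn3*, a calponin, had 293, 295, 338 and 293 CPM, and the gap of Tumor5 was 0.939 of the range. Chance alone marks about 1 in 20 groups of this size, and 2 of 78 is not above that share. In both genes the other 3 tumors lay very close together.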

How the results depend on the processing

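The counts of genes that were higher in cluster I and cluster II (439 and 35) were 435 and 36 with DESeq2's size factors, 463 and 28 with library totals, 505 and 38 with no filter, and 463 and 36 with muscle and mitochondrial genes left out of the library sizes, a choice made after seeing the data. Of the 439 genes, 435 met the rule also with DESeq2's size factors. The counts were 205 and 15 at a mean of at least 20 CPM, 1632 and 1213 with no ratio required, 211 and 2 at a ratio of at least 4, and 758 and 347 when Tumor1 was compared with Tumor2 and Tumor3 with Tumor4 only. In alternatives chosen after seeing the data they were 692 and 228 without Tumor5 and Tumor6 and 750 and 314 without Tumor2 and Tumor4. Leaving out each tumor in turn gave 496 to 584 genes of cluster I and 50 to 324 genes of cluster II, highest without Tumor1. Fewer tumors or a lower limit leave more genes by construction.

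The ratio of mean distances between the clusters to those within cluster II was 1.23 and became 1.35 with the 500 most variable genes. It was 1.16 to 1.30 with each tumor left out in turn, added after seeing the data, and the first split kept the clusters apart except without Tumor2.

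Between the tumor-derived organoids (98 genes higher and 12 lower), DESeq2 called 391 and 107 genes, and 236 and 47 genes were called with no filter on low counts. With the replicate block, that is a pairing by sample number, 212 and 28 genes were called, and no call of a gene given with its p-value changed. Each line left out in turn gave 0 to 748 genes higher and 0 to 710 lower, which leaves 1 library in an arm that is assumed to vary like the other arm. Of the genes of cluster I, 5 were called lower, which was 40 by DESeq2, 15 with no filter, 10 with the block and 0 to 270 with a line left out. Of the genes of cluster II, 4 were called higher, which was 9, 6 and 8 in the same settings and 0 to 11 with a line left out. The cause of these shifts was not tested. Between oviduct tissue and organoids (2298 and 1771 genes) the pairing gave 2285 and 1719 genes, and all alternatives stayed within 1.5 times for these totals. Of the genes of cluster II, 9 were higher in tissue, which was 15 with no filter and 6 to 12 with a library left out, and 2 were lower, which was 1 by DESeq2 and 0 to 4 with a library left out. Of 1680 recomputed log2 differences of 210 named genes, none reversed and 83 moved by more than the spread within cluster II. Depth limits genes near 3 reads, which is 3.15 CPM in Tumor4.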

Other observations

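Genes of the metabolism and stress lists mostly overlapped between the clusters, as did 72.9% of all genes described. Nothing is read from these counts of overlap. Of 39 described genes of hypoxia and glycolysis 33 overlapped between the clusters, and their sum was 5148 and 10084 CPM in cluster I and 6321, 8117, 12971 and 7667 CPM in cluster II, highest in Tumor5. Of 74 nuclear genes of oxidative phosphorylation 60 overlapped and none had a ratio of 2. Of the others, 13 lay on the side of cluster II and 1 on that of cluster I (11.5% and 15.5% of all genes). The 14 described mitochondrially encoded genes had a sum of 129710.0 and 131230.0 CPM in cluster I and 107180.0, 106960.0, 194660.0 and 144960.0 CPM in cluster II. Tumor5 was highest there as well. Of 24 described p53 target genes 18 overlapped, and 1 was higher in cluster I and none in cluster II. Of 26 described genes of the Wnt response 3 were higher in cluster I, and of 33 matrix protease genes 2 were higher in cluster I and 1 in cluster II. Over all genes the shares were 4.18% and 0.333%, and nothing is read from the counts of p53 targets and matrix proteases, which were near them. The hormone and uterine epithelium list, which holds *Lcn2* and *Ltf*, had 7 of 12 described genes higher in cluster I and 1 in cluster II. *Hmga2*, a chromatin protein of the proliferative subtype list, had 106 and 196 CPM in cluster I and 136, 199, 478 and 583 CPM in cluster II, highest in Tumor5 and Tumor6.

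Gene families defined by the start of the symbol were counted after seeing the data, by the same rule of a ratio of at least 2 between the clusters. Of 6 described mucin genes 5 were higher in cluster I, namely *Muc1*, *Muc4*, *Muc5b*, *Muc13* and *Muc20*, and of 9 claudin genes 6 were. Of 7 serine protease genes of the epithelial surface and its relatives (*Tmprss*, *Prss*, *St14* and *Hpn*) 6 were higher, namely *Tmprss2*, *Tmprss4*, *Tmprss11g*, *St14*, *Hpn* and *Prss22*. *Muc4*, a membrane mucin, had 51.1 and 151 CPM in cluster I and 0, 3.15, 0 and 0 CPM in cluster II. *St14*, the protease matriptase, had 64.2 and 83.9 CPM in cluster I and 0.951, 8.41, 0 and 1.34 CPM in cluster II. Forkhead genes gave 4 of 16 (*Foxa1*, *Foxa2*, *Foxj1* and *Foxq1*), and *Foxa2*, a factor of glandular epithelium, had 29.1 and 68.6 CPM in cluster I and 0, 0, 2.12 and 2.68 CPM in cluster II. Of 173 solute carrier genes 18 were higher in cluster I (10.4%) and 1 in cluster II. Over all genes described the shares were 4.18% and 0.333%.

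Housekeeping families had small median differences towards cluster II. Of 80 ribosomal protein genes none had a ratio of 2 in either direction, 16 did not overlap on the side of cluster II and 2 on that of cluster I (11.5% and 15.5% of all genes), with a median log2 difference of -0.305. Of 38 proteasome genes 13 did not overlap on the side of cluster II and 2 on the other, with a median of -0.302. Of 13 Hox genes none had a ratio of 2, and 5 did not overlap on the side of cluster I (15.5% of all genes). The negative medians of the ribosomal and proteasome genes were kept with DESeq2's size factors (-0.312 and -0.309) and with library totals (-0.248 and -0.246), where the median over all genes was -0.018 and 0.0455.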
